A study of Mus musculus with 4 samples.

Results

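Chemokines are small secreted proteins that direct the movement of white blood cells, and chemokine receptors are the G protein-coupled receptors through which cells sense them. CC and CXC ligands are named for the spacing of their first cysteines, and the receptor names (Ccr, Cxcr) follow the class of ligand they bind. Some of these genes keep lymphocytes and progenitors in their tissues at rest, with Cxcl12 and its receptor Cxcr4 as the textbook pair, and others are induced in inflammation. In the heart, stromal and vessel cells are known sources of Cxcl12, while most receptors sit on resident or passing leukocytes.

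The genes described here are those whose symbol in the array annotation begins with Ccl, Cxcl, Ccr or Cxcr followed by a digit, apart from 1 gene left out of the selection, and only probe sets that carry a single symbol were used. This gave 34 genes of the 8251 named on the array, 21 ligands on 25 probe sets and 13 receptors on 13 probe sets. A further 4 probe sets that pair such a symbol with others were left out. The samples were total RNA of whole hearts of heterozygous mice and of wild-type mice, with 2 pools in each genotype. All mice were adult males of 8 to 16 weeks on a 129/Black Swiss background, and each pool combined 5 hearts. Since it is not stated that the pools of a genotype held different animals, p-values reflect only how far these 4 samples spread, which may be technical.

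Signals are linear intensities on the deposited scale, relative to the total of each array. The 4 arrays had 2% trimmed means of 1486.5 to 1488.07 and medians of 508.85 and 531.15 in the heterozygous pools and 569.75 and 608.2 in the wild-type pools. Heart muscle genes were bright in all pools: Myh6, the main myosin heavy chain of the adult mouse heart, had signals of 122361.9 and 120638.7 in the heterozygous pools and 97751.9 and 87078.2 in the wild-type pools. Markers of other cells differed between the genotypes too. Over all 7453 tested probe sets, 20.4% were called lower and 17.9% higher in heterozygous pools, by the threshold given below. All 16 tested thymocyte and T cell markers were lower in the heterozygous pools, with summed signals of 19787 to 20176 in heterozygous pools and 150843 to 154459 in wild-type pools, and none of the 16 was below the floor of 36.25 in any pool. Of thymic epithelial markers 4 of 5 tested were lower and of lung epithelial markers 2 of 3 tested were higher. For example Rag1, part of the enzyme that rearranges T and B cell receptor genes, had signals of 3183.4 and 3250.8 in heterozygous pools and 25556 and 28828.2 in wild-type pools. Krt17, a keratin on the thymic epithelial list, had 55.7 and 122 in heterozygous pools and 1514.1 and 1484.5 in wild-type pools. Krt17, Pax1, Rag2 and Ptcra had heterozygous means below 348.95, the lowest mean tested, and entered the test only through their wild-type signal. Of the untested thymic epithelial markers, Foxn1 and Krt14 overlapped between the genotypes, and Krt5 and Epcam were lower in both heterozygous pools. The labels name only heart, and whether the wild-type pools also held thymus tissue was not tested, nor was the part of these cells in the results below. In whole tissue, fewer cells of a type and less RNA per cell cannot be told apart.

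Chemokine receptors were lower in the heterozygous pools, against the wild-type pools with their higher thymocyte marker signals, wherever they were called. Of 6 tested receptor genes, 5 fell (Ccr2, Ccr6, Ccr7, Ccr9 and Cxcr4), and Cxcr3 did not pass. Among the 9 tested ligand genes, Ccl5, Ccl8 and Cxcl13 fell, Ccl9 rose, and Cxcl12 rose on 1 probe set and fell on another, while Ccl2, Ccl6, Ccl22 and Cxcl1 did not pass. In all, 11 of 17 tested probe sets were called, 2 higher and 9 lower in heterozygous pools, against a background of 38.3% called (17.9% higher and 20.4% lower) among all 7453 tested probe sets. The median log2 change was -1.03 over the 17 and 0.0011 over all tested probe sets. A call is an adjusted p under 0.05 from limma with Benjamini-Hochberg adjustment over all tested probe sets, and log2 changes are heterozygous minus wild type with limma's standard error (SE).

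The filter on dim probe sets shaped these counts. The 40% of probe sets with the lowest mean signal were not tested, and this removed 21 of the 38 probe sets, so that 12 ligand genes and 7 receptor genes had no test. Of the 17 tested probe sets, 5 had a heterozygous mean below the lowest tested mean of 348.95 and entered the test through their wild-type signal. Those were Ccl8, Ccr2, Ccr7, Cxcl13 and Cxcr3, of which the first 4 were called lower. The opposite held for Ccl6, whose wild-type mean was below that limit. Of the 11 probe sets with both means above it, 5 were called lower and 2 higher. With no filter, the median log2 change was -0.18 over the 38 probe sets, against -1.03 over the 17 tested.

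**Figure D1:**
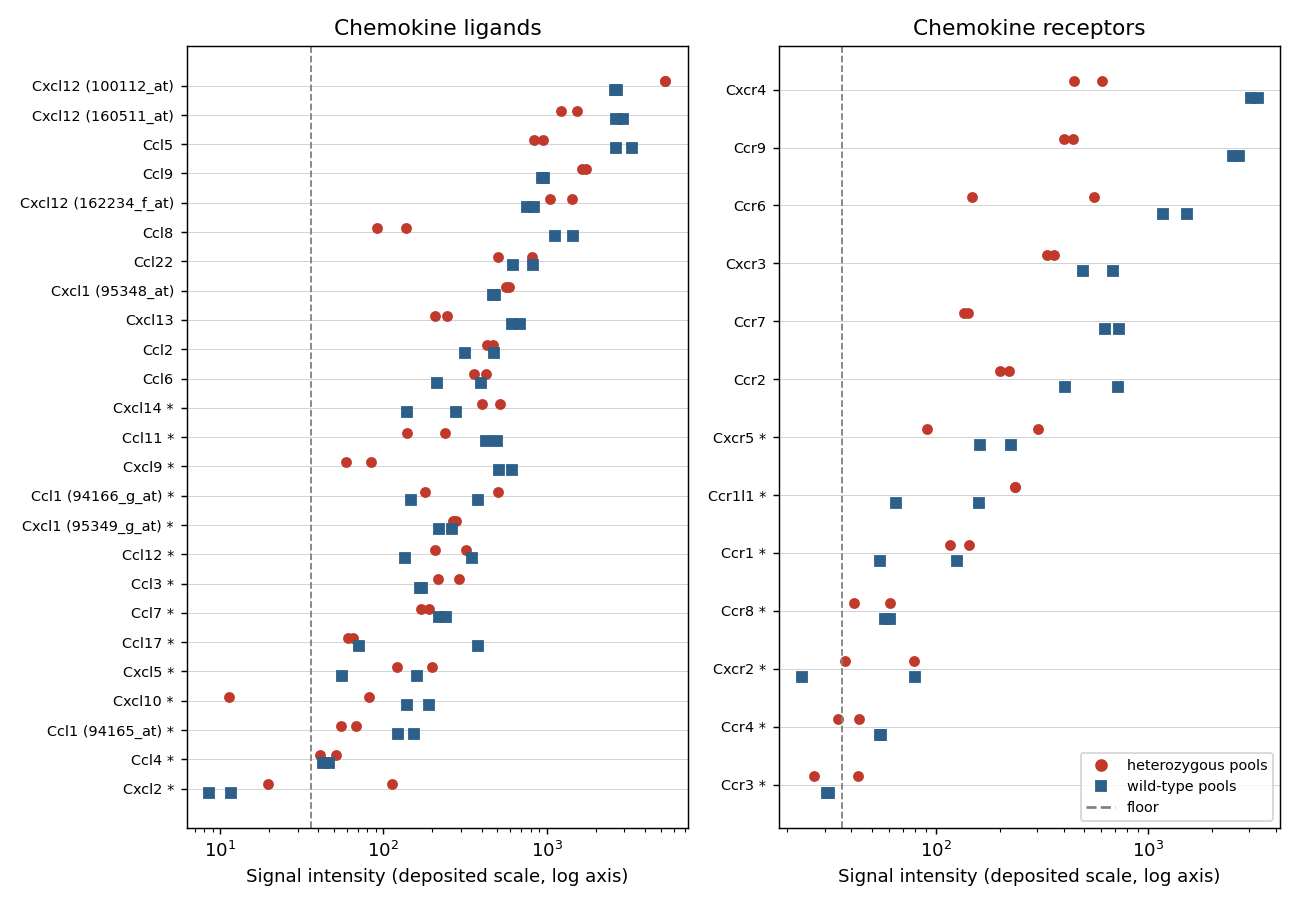
Signal intensity of every chemokine (left) and receptor (right) probe set in each pool, on log axes, with circles for heterozygous pools and squares for wild-type pools. Rows are ordered by mean signal, asterisks mark untested probe sets, and the dashed line is the floor of 36.25; the circles of Cxcr4, Ccr9, Ccr7 and Ccl8 lie left of all their squares. Signals of different probe sets are not comparable with each other.

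Ccr9, the receptor that guides developing T cells in the thymus and lymphocytes to the gut, gave a signal of 401 and 444.5 in the heterozygous pools and of 2514.3 and 2677.7 in the wild-type pools (probe set 98323_at). The genotypes did not overlap, and the pools of each lay close together. This was a 6.15-fold decrease (log2 change -2.62, SE 0.19, limma adjusted p = 2.8e-05).

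Cxcr4, which holds progenitors and immature lymphocytes near cells that make Cxcl12, had signals of 450.1 and 607.8 in heterozygous pools, against 3043.7 and 3281.8 in wild-type pools (probe set 102794_at). Both heterozygous values were far below both wild-type values. The decrease was 6.04-fold (log2 change -2.60, SE 0.20, limma adjusted p = 4.1e-05), close in size to that of Ccr9.

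Ccr7, which brings T cells and dendritic cells into lymph nodes and thymocytes into the thymic medulla, had signals of 141.4 and 135.6 in heterozygous pools and 732.9 and 628.8 in wild-type pools (probe set 104443_at). It fell 4.90-fold (log2 change -2.29, SE 0.38, limma adjusted p = 0.00200). The ligands known for Ccr7 share their probe sets with several symbols and are not analysed here.

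Ccr6, a receptor of B cells, some helper T cells and dendritic cells, had 554.7 and 148.2 in heterozygous pools and 1174.5 and 1522.1 in wild-type pools (probe set 99899_at). The genotypes did not overlap, but the heterozygous pools differed widely from each other. The log2 change of -2.22 (SE 0.52, limma adjusted p = 0.00971) was -3.17 when heterozygous pool 1 was dropped and -1.27 when heterozygous pool 2 was dropped, and it passed in both cases. With every probe set tested it did not pass (limma adjusted p = 0.196; range over 15 alternatives 0.00173 to 0.196).

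Ccr2, through which monocytes answer Ccl2, gave 222.7 and 201.7 in the heterozygous pools and 405.2 and 723.8 in the wild-type pools (probe set 93397_at). Here it was the wild-type pools that were spread. Its log2 change of -1.35 (SE 0.41, limma adjusted p = 0.0283) was the call lost most often among these 11. It did not pass when either heterozygous pool was dropped (-1.42 without pool 1 and -1.28 without pool 2), when wild-type pool 2 was dropped (-0.93), or with every probe set tested (limma adjusted p = 0.150; range over 15 alternatives 0.00336 to 0.258). Macrophage and monocyte markers moved both ways, with Ctss and Cd68 lower, Mrc1 higher and 7 of 10 tested markers not passing. That share called, 30%, was below the 38.3% of all tested probe sets. Of the 3 untested markers, Adgre1 had 239.6 and 289.3 in heterozygous pools and 62.9 and 70 in wild-type pools. Aif1 had 69 and 90.4 in heterozygous pools and 724.2 and 480 in wild-type pools, and Msr1 overlapped. With every probe set tested, Adgre1 rose (1.99, limma adjusted p = 0.0383) and Aif1 fell (-2.90, limma adjusted p = 0.0452), against 9.71% called. Summed signals of all 13 markers were 27829 to 28088 in heterozygous pools and 31056 to 33402 in wild-type pools.

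Cxcr3, found on activated T cells, had signals of 332.9 and 359.5 in heterozygous pools and 683.5 and 493.6 in wild-type pools. The genotypes did not overlap, yet the log2 change of -0.75 (SE 0.31) did not pass (limma adjusted p = 0.0882). It passed as lower in 2 of 15 alternatives, without the mean-variance trend (limma adjusted p = 0.0428) and with arrays centred on the sarcomere genes (-1.41, limma adjusted p = 0.00448; range over alternatives 0.00448 to 0.423).

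The other 7 receptor genes were too dim to test. Cxcr5, of B cells, had 302.8 and 91.5 in heterozygous pools, which enclosed the 161 and 226.4 of the wild-type pools. Signals of Ccr1l1, a relative of Ccr1, were 237.3 and 236.2 in heterozygous pools and 65.2 and 160.6 in wild-type pools. Ccr1 itself, a receptor of monocytes and granulocytes, had 117 and 143.8 in heterozygous pools and 54.8 and 125.4 in wild-type pools. Ccr3 (of eosinophils), Ccr4 and Ccr8 (of T cell subsets) and Cxcr2 (of neutrophils) stayed between 23.4 and 80.1 in all pools, near the floor of 36.25. Of these 7, only Ccr1l1 and Ccr4 had pools that did not overlap, Ccr4 with 34.7 and 43.8 in heterozygous pools and 55.2 and 55 in wild-type pools. Over the whole array, 6986 of 12422 probe sets had pools that did not overlap, 5227 of them among the 7453 tested.

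Ccl8, a monocyte-attracting chemokine that acts through Ccr8 in the mouse, had the largest log2 change of the tested probe sets of the family. Its signal was 91.7 and 136.8 in heterozygous pools and 1444.8 and 1123.8 in wild-type pools (probe set 92459_at). This was an 11.4-fold decrease (log2 change -3.51, SE 0.36, limma adjusted p = 1.7e-04). The dim signal of Ccr8 (41.4 and 60.8 in heterozygous pools, 57.7 and 60.7 in wild-type pools) overlapped between the genotypes.

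Ccl5, made by activated T cells among others, had signals of 954.9 and 836.8 in heterozygous pools and 3329.3 and 2671 in wild-type pools (probe set 98406_at). It fell 3.34-fold (log2 change -1.74, SE 0.19, limma adjusted p = 2.1e-04). Cxcl13, which draws B cells into follicles through Cxcr5, had 245.6 and 207.2 in heterozygous pools and 685.6 and 615.6 in wild-type pools (probe set 102025_at). It fell 2.88-fold (log2 change -1.53, SE 0.33, limma adjusted p = 0.00672). This call was lost when wild-type pool 1 was dropped (-1.45, limma adjusted p = 0.0554) and with every probe set tested (limma adjusted p = 0.0557; range over 15 alternatives 6.3e-04 to 0.0557). Of 7 tested B cell markers 5 were lower in the same comparison, against 20.4% of all tested probe sets. Their summed signals were 4898 to 5007 in heterozygous pools and 11101 to 11902 in wild-type pools. Of the 5, Cd22 had a heterozygous mean of 321.4, below 348.95, and entered the test only through its wild-type signal. No B cell marker was below the floor in any pool, and their part in the Cxcl13 value was not tested.

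Ccl9, a CC chemokine of myeloid cells that acts through Ccr1, went the opposite way. Its signal was 1643.2 and 1734.3 in heterozygous pools and 960.1 and 941.9 in wild-type pools (probe set 104388_at). The 1.78-fold increase (log2 change 0.83, SE 0.18, limma adjusted p = 0.00633) depended on the scale between arrays: with arrays centred on sarcomere genes, which were themselves higher in the heterozygous pools, the log2 change was 0.17 (limma adjusted p = 0.445; range over 16 alternatives 0.00146 to 0.445).

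**Figure D2:**
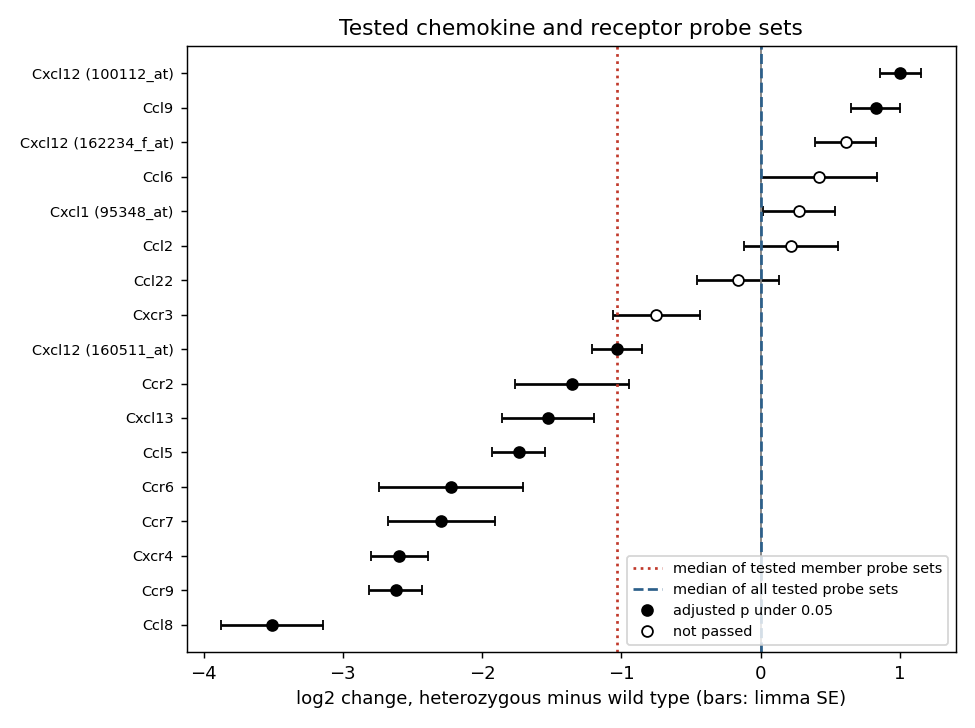
Log2 change, heterozygous minus wild type, of the 17 tested probe sets, with bars for limma's SE. Filled points passed an adjusted p of 0.05: 9 lie below 0, down to -3.51 for Ccl8, and 2 lie above 0, at 0.83 for Ccl9 and 1.00 for a Cxcl12 probe set. The dotted line is the median of these 17 (-1.03) and the dashed line the median of all tested probe sets (0.0011).

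Cxcl12, the ligand of Cxcr4, was measured by 3 probe sets that disagreed in direction. On probe set 100112_at its signal was 5342.7 and 5335.3 in heterozygous pools and 2619 and 2706.4 in wild-type pools. This was a 2.01-fold increase (log2 change 1.00, SE 0.15, limma adjusted p = 9.7e-04). On probe set 160511_at the order was turned round, with 1538.5 and 1226.8 in heterozygous pools and 2665.5 and 2953.9 in wild-type pools.

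That second probe set fell 2.04-fold (log2 change -1.03, SE 0.18, limma adjusted p = 0.00252). With every probe set tested it did not pass (limma adjusted p = 0.0557; range over 16 alternatives 1.2e-04 to 0.0557). The third, 162234_f_at, carries the suffix that marks probes which may match a family of sequences. It had 1044.7 and 1427.9 in heterozygous pools and 758.4 and 842.3 in wild-type pools, higher in both heterozygous pools but not past the threshold (log2 change 0.61, SE 0.22, limma adjusted p = 0.0560). It passed in 5 of 16 alternatives, among them quantile normalization (0.76) and the pool number as a block (0.61, limma adjusted p = 0.0445; range over alternatives 0.0123 to 0.873). Where these probe sets lie on Cxcl12 transcripts, and which transcript forms they report, was not tested. With arrays centred on the sarcomere genes, 160511_at remained lower (-1.69), 100112_at no longer passed (0.35, limma adjusted p = 0.0761; range over alternatives 2.2e-04 to 0.0761) and 162234_f_at was at -0.046.

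Beside the decrease of Cxcr4, the other Cxcl12 receptor moved the opposite way. Ackr3, which takes up Cxcl12 without G protein signalling, had signals of 3677.3 and 4203.2 in heterozygous pools and 2457.4 and 2742.2 in wild-type pools. It rose 1.51-fold (log2 change 0.60, SE 0.16, limma adjusted p = 0.0172). The call was lost with every probe set tested (limma adjusted p = 0.0738) and when wild-type pool 1 was dropped (0.52), as well as when heterozygous pool 1 (0.70) or pool 2 of that genotype (0.50) was. With arrays centred on the sarcomere genes the log2 change was -0.059 (limma adjusted p = 0.776; range over 16 alternatives 0.00350 to 0.776). Endothelial markers were higher in 9 of 10 tested cases, where 17.9% of all tested probe sets were higher and 20.4% lower. Their summed signals were 36410 to 40949 in heterozygous pools and 19689 to 20597 in wild-type pools. Among tested fibroblast markers 7 of 10 were higher, and 1, Thy1, which is also a T cell marker, was lower. Their summed signals were 92226 to 98420 in heterozygous pools and 65989 to 67298 in wild-type pools. Cardiomyocyte markers were higher in 12 of 13 tested cases, with 1 not passing. Summed, they had 962460 to 963623 in heterozygous pools and 625749 to 672777 in wild-type pools. Median log2 changes were 0.94 for tested endothelial markers, 0.71 for fibroblast markers and 0.61 for cardiomyocyte markers. The part of these cells in the Cxcl12 and Ackr3 values was not tested.

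**Figure D3:**
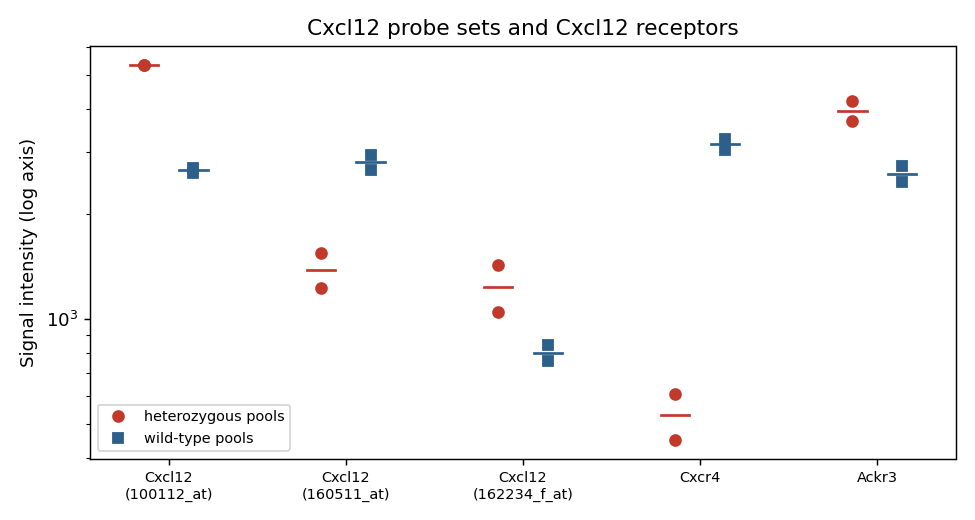
Signal intensity on a log axis of the 3 Cxcl12 probe sets and of the Cxcl12 receptors Cxcr4 and Ackr3, with circles for heterozygous pools, squares for wild-type pools and short lines for the group means. Heterozygous pools lie above wild-type pools on 100112_at, 162234_f_at and Ackr3 and below them on 160511_at and Cxcr4.

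Ligands of monocytes and neutrophils gave no call apart from those above. Ccl2, the main monocyte attractant and a ligand of Ccr2, had 431.4 and 468.5 in heterozygous pools and 473.3 and 315.4 in wild-type pools, which overlapped (log2 change 0.22, SE 0.33, limma adjusted p = 0.644). Ccl6, a mouse ligand of Ccr1, had 423.9 and 360.8 in heterozygous pools and 399.2 and 213.7 in wild-type pools (0.42, SE 0.42, limma adjusted p = 0.463). Cxcl1, a neutrophil attractant that acts through Cxcr2, had 566.2 and 592.1 in heterozygous pools and 483.5 and 471.7 in wild-type pools (0.28, SE 0.26, limma adjusted p = 0.437). Its pools did not overlap, nor did those of its dimmer, untested probe set 95349_g_at, with 268.3 and 277.9 in heterozygous pools and 218.6 and 263.7 in wild-type pools.

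Ccl22, a product of dendritic cells that acts through Ccr4, had 503.3 and 809.1 in heterozygous pools and 618.6 and 821.7 in wild-type pools (log2 change -0.16, SE 0.29, limma adjusted p = 0.704). Its values overlapped, although 5 of 10 tested dendritic cell markers (a list that holds Ccl22 itself) were lower, against 20.4% of all tested probe sets. In the whole family, 14 of 17 tested probe sets had heterozygous and wild-type pools that were fully apart, against 70.1% of all tested probe sets.

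Among the 12 ligand genes with no tested probe set, Cxcl9 had the largest log2 difference. Cxcl9, an interferon-gamma-induced ligand of Cxcr3, had signals of 59.2 and 84 in heterozygous pools and 612.1 and 509.3 in wild-type pools. With every probe set tested, its log2 change was -2.99 (SE 0.32, limma adjusted p = 0.0379), against a background of 9.71% called in that fit. Cxcl10, its neighbour and a ligand of the same receptor, had 81.2 and 11.4 in heterozygous pools and 140.7 and 190.6 in wild-type pools, with 1 heterozygous value below the floor. It did not pass in that fit (log2 change -1.59 with that value raised to the floor, limma adjusted p = 0.169).

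Ccl11 (eotaxin, which draws eosinophils) had 139.7 and 237.3 in heterozygous pools and 493.8 and 423.4 in wild-type pools, without overlap. Ccl17, a Ccr4 ligand of dendritic cells, had 60.8 and 65.5 in heterozygous pools and 381.2 and 71.1 in wild-type pools, so that 1 wild-type pool alone was high. Cxcl14, a chemokine of epithelia and stroma, had 403.9 and 516.2 in heterozygous pools and 277.9 and 140.1 in wild-type pools, higher in both heterozygous pools. None of these 3 passed with every probe set tested (limma adjusted p = 0.149 for Ccl11, 0.464 for Ccl17 and 0.226 for Cxcl14).

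The 2 probe sets of Ccl1, a ligand of Ccr8, disagreed: 94165_at had 55.1 and 68.5 in heterozygous pools and 122.4 and 154.2 in wild-type pools, while 94166_g_at overlapped, with 180.4 and 503.8 in heterozygous pools and 148.7 and 380.5 in wild-type pools. The macrophage products Ccl3 and Ccl4 had 291.7 and 214.9 (Ccl3) and 41 and 51.2 (Ccl4) in heterozygous pools, against 167.2 and 172.5 (Ccl3) and 46.3 and 42.8 (Ccl4) in wild-type pools. Ccl4 therefore lay near the floor in all pools. The monocyte attractants Ccl7 and Ccl12 had 170.7 and 189.6 (Ccl7) and 321.2 and 206.7 (Ccl12) in heterozygous pools, and 218.7 and 241.4 (Ccl7) and 351.6 and 136.7 (Ccl12) in wild-type pools.

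Of these, Ccl7 was lower in both heterozygous pools and Ccl12 overlapped. Of the neutrophil attractants that act through Cxcr2, Cxcl5 had 121.2 and 199.1 in heterozygous pools and 55.8 and 161 in wild-type pools. Cxcl2 was below the floor in 3 pools (19.8 in heterozygous pool 1, 8.6 and 11.6 in the wild-type pools) and had 112.6 in heterozygous pool 2. Of 6 tested neutrophil markers, S100a8 was lower and 5 did not pass, against 38.3% of all tested probe sets called. S100a8 had a heterozygous mean of 197.6, below 348.95, and entered the test only through its wild-type signal.

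Many chemokine genes sit side by side in the genome, and neighbours were alike in sign in some runs and not in others. By the RefSeq gene table of GRCm38.p6, 21 of the 34 genes fell into 6 runs with gaps of at most 100 kb between neighbouring members. In 3 runs all log2 differences had the same sign and in 3 both signs occurred. The first 3 held 2 genes each and the others 4 to 6, and longer runs have more room for both signs. The runs of 1 sign were the pairs Cxcl9 and Cxcl10 (-2.99 and -1.59), Ccl22 and Ccl17 (-0.16 and -1.38) and Cxcl1 and Cxcl2 (0.28 and 0.82), none of them with a called gene. In the run of 6 that holds Ccl2, Ccl7, Ccl11, Ccl12, Ccl8 and Ccl1, the log2 difference was -3.51 for Ccl8 and 0.22 for Ccl2. In the run of 5, Ccl5 fell (-1.74) and the next gene, Ccl9, rose (0.83), with Ccl6, Ccl3 and Ccl4 at 0.42, 0.56 and 0.042. In the receptor run of 4, Ccr2 fell (-1.35), while its untested neighbours Ccr1, Ccr1l1 and Ccr3 had log2 differences of 0.65, 1.21 and 0.12. Members of such runs have similar sequences, and probes of 1 can detect another.

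**Figure D4:**
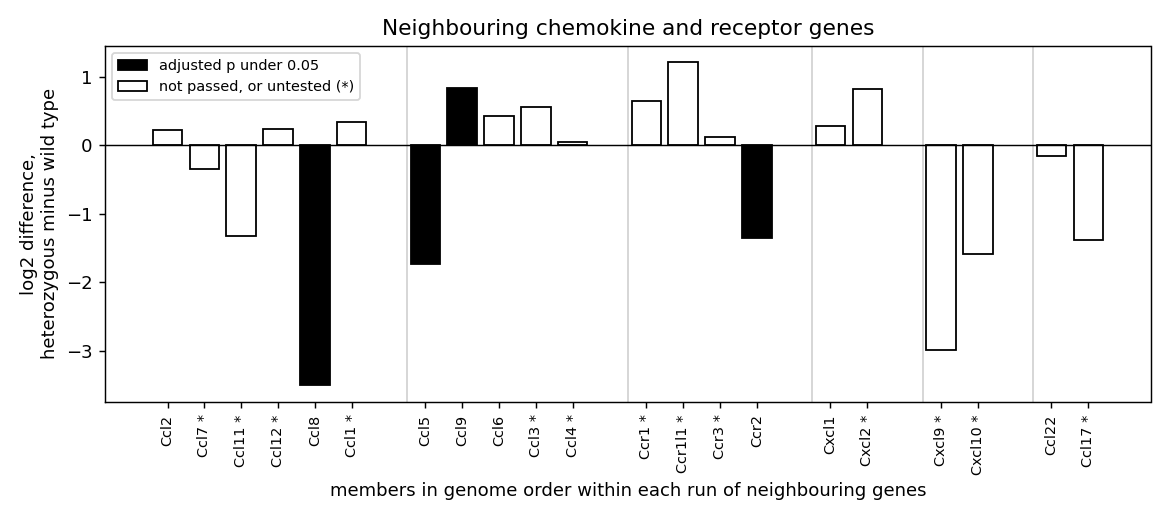
Log2 difference, heterozygous minus wild type, of the 21 genes in 6 runs of neighbouring members, each on its brightest probe set and in genome order within the run. Black bars passed an adjusted p of 0.05 and asterisks mark untested genes; Ccl8, Ccl5 and Ccr2 point down and Ccl9, next to Ccl5, points up. The bars of the 3 runs of 2 genes point 1 way within each run.

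Promoters are shown for Ccl8 and Cxcr4, called members with large decreases, and for the neighbours Cxcl9 and Cxcl10, whose signals were also lower in both heterozygous pools. Each is the 250 bases before the RefSeq start on GRCm38.p6, written 5′ to 3′ on the gene's strand. An entry was found for 26 of the 34 genes. Capitals mark the letters TATAAA, searched on the gene's strand, and CCAAT, searched on both strands. These are the letters of common promoter elements and do not overlap here.
Ccl8, chr11:82114935-82115184, plus strand: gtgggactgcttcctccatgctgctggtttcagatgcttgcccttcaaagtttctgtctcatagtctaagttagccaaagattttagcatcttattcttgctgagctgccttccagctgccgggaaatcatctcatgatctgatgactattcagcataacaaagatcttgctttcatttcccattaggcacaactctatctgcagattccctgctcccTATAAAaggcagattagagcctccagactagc
Cxcr4, chr1:128592300-128592549, minus strand: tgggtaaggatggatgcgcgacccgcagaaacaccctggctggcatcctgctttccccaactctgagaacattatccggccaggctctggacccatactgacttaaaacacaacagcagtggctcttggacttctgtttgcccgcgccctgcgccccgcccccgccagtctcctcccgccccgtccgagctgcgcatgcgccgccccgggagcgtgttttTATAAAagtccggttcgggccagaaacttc
Cxcl9, chr5:92328080-92328329, minus strand: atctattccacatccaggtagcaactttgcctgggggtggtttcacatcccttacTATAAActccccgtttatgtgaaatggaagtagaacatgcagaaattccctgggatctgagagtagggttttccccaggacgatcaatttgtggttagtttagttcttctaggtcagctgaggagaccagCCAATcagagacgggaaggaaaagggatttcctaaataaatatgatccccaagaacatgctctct
Cxcl10, chr5:92348890-92349139, minus strand: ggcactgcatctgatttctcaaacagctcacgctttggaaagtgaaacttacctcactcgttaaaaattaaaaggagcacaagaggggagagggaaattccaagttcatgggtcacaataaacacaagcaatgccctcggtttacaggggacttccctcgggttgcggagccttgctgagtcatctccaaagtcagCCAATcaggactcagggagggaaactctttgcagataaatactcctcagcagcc

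TATAAA began 32 bases before the start in Ccl8 and 30 bases before it in Cxcr4. In Cxcl9 the same letters began 195 bases before the start, and CCAAT began 65 bases before it. Cxcl10 held CCAAT at 54 bases before the start. Of the 26 promoters, 6 held TATAAA (Ccl8, Ccl9, Ccl12, Cxcl9, Cxcl13 and Cxcr4), and 7.59% of all 32851 promoters in the table did. CCAAT was in 6 (Ccl1, Ccr3, Ccr8, Cxcl9, Cxcl10 and Cxcr2) and in 33.8% of all. Of the members with TATAAA, Ccl8, Cxcl13 and Cxcr4 fell, Ccl9 rose, and Ccl12 and Cxcl9 were untested. Calls were made for 11 of the 17 tested probe sets of the family and for 38.3% of all tested probe sets. Ccl8 and Cxcl13 entered the test only through their wild-type signal. A link between these letters and the calls was not tested. A match is a run of letters and was not tested as a binding site.

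Genes that carry the receptor signal inside the cell were called lower or did not pass. Of 18 tested genes of chemokine receptor signalling and the adhesion it triggers, 12 fell and none rose, against 20.4% lower and 17.9% higher among all tested probe sets, with a median log2 change of -1.65. Of the 12, Pik3cd, Itgal and Dock2 had heterozygous means below 348.95 and entered the test only through their wild-type signal. Of the 15 with both means above that limit, 9 fell. The smallest p-values belonged to Rassf5, which links Rap1 to integrins (log2 change -2.67, SE 0.17, limma adjusted p = 1.6e-05), and Coro1a, an actin regulator of leukocytes (-2.55, SE 0.17, limma adjusted p = 2.0e-05). Rac2, the Rac GTPase of blood cells, followed (-2.15, SE 0.15, limma adjusted p = 2.4e-05), then Rgs14, which quenches Gi proteins (-1.78, SE 0.18, limma adjusted p = 1.3e-04).

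The 6 tested genes of this list that did not pass were Rac1, Grk5, Rgs2, Arrb1, Gnai2 and Gnb1. Grk6, a receptor kinase, was among those that fell (log2 change -1.12, limma adjusted p = 9.7e-04). Gnai3, a Gi protein subunit, fell, with 1556 and 2375 in heterozygous pools and 4064.7 and 7768.1 in wild-type pools (log2 change -1.55, limma adjusted p = 0.00425). Gnai2, a related subunit, had 39810.7 and 35368.7 in heterozygous pools and 43875.3 and 37563.5 in wild-type pools (log2 change -0.11, limma adjusted p = 0.555), which did not pass. The Gnai2 probe set carries the suffix that marks probes which may match a family of sequences, so its signal may not be that of Gnai2 alone. Rac1 did not pass either, with 33874 and 24227.4 in heterozygous pools and 23276.4 and 17585.7 in wild-type pools (0.50, limma adjusted p = 0.0704). The 12 that fell include genes known mainly from leukocytes, and the thymocyte and T cell markers given above fell in the same pools, with a median log2 change of -2.95. Their part was not tested.

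Chemokine system genes with other names gave 1 call in 5 tested, Ackr3, against 38.3% of all tested probe sets. Cx3cl1, the membrane-bound chemokine of endothelium, and its receptor Cx3cr1 had log2 changes of 0.18 (limma adjusted p = 0.607) and 0.24 (limma adjusted p = 0.436), and Xcr1 and Ccrl2 did not pass either. A further 7 genes of this list were too dim to test. Of these, Cmklr1 had 38.3 and 36 in heterozygous pools and 108.4 and 87.6 in wild-type pools, with 1 value below the floor. With every probe set tested it alone of the list passed, as lower (-1.39, limma adjusted p = 0.0357), against 9.71% called in that fit. Of 15 tested cytokines, cytokine receptors and NF-kappaB genes that can induce chemokines, 3 fell and 1 rose. That share called, 26.7%, was below the 38.3% of all tested probe sets (20.4% lower and 17.9% higher). Ltb, a lymphotoxin subunit of lymphocytes, fell 4.79-fold, with signals of 1786 and 1461.8 in heterozygous pools and 7859 and 7621.6 in wild-type pools (log2 change -2.26, SE 0.16, limma adjusted p = 2.5e-05). Irf1, an interferon-induced transcription factor, fell as well (-1.14, SE 0.20, limma adjusted p = 0.00228). The interferon-gamma receptor chains moved apart, with Ifngr1 at -0.61 (limma adjusted p = 0.04999, just under the threshold) and Ifngr2 at 0.56 (limma adjusted p = 0.0288). The cytokine genes Tnf, Il1b, Il6 and Ifng themselves were untested, with signals of at most 79.6 in any pool.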

How the data were processed

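Total RNA of 4 pools of mouse hearts was measured on 1-colour oligonucleotide arrays. The values deposited by the authors are signal intensities on a linear scale, with 1 value for each probe set on each array. The sources used here do not name the summarising software. The 66 control probe sets had no value in heterozygous pool 2 and were removed, leaving 12422. The gene in which the mice were heterozygous is not reported here.

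Because trimmed means already matched, intensities were used as deposited. A floor was set at the 10th percentile of the deposited table (36.25), below which no tested family value lay, before taking log2. The 40% of probe sets with the lowest mean over the pools were not tested. The other 7453 were fitted with limma 3.58.1 in R 4.3.3 (lmFit and eBayes, with a trend of variance on mean signal), with genotype as the only term, two-sided p-values and Benjamini-Hochberg adjustment over all of them. With 2 pools in each genotype, an exact two-sided permutation test could reach 0.333 at best. Simulated arrays with known fold changes were used to test the fit. Standard deviations are not given, since every pool's value is printed, and precision is limited by the small number of arrays. Deviations of the pools from their genotype means correlated at 0.16 between pools of the same number, across probe sets; 2 pairs do not settle whether numbers pair the pools. Scalings, floors, filters, moderation, a block for pool number and leaving out each pool were tried as alternatives. Symbols come from the platform annotation (10855 probe sets with 1 symbol), promoter sequences from RefSeq on GRCm38.p6.

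The family, the lists and the promoter letters were chosen with earlier results of these data known. Every member is named: called members and those with several probe sets are given in every pool. Of other lists, counts and up to 4 members with the smallest p in each direction are given, the brightest probe set standing for a gene; other genes of those lists, such as Gnai2, Gnai3, Rac1, Cx3cl1 and Tnf, were named after their values were seen.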

Additional observations from a re-analysis of the deposited data

How the results depend on the processing

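Of the 11 calls, those of Ccl5, Ccl8, Ccr7, Ccr9 and Cxcr4 passed with the same sign in each of the 15 or 16 alternatives that tested them. Leaving out each pool in turn gave 10 to 11 calls, with 8 lower each time and 2 to 3 higher. The number of calls was 6 (4 lower) when the dimmest 60% of probe sets were not tested, where only 7 of the family's probe sets were tested. In that setting 48.0% of all tested probe sets were called. With arrays centred on the sarcomere genes, 0 of the family's probe sets rose and 11 fell. There 56.8% of all tested probe sets were called, with 4039 of 7453 lower and 192 higher. A common median of the arrays moved the array-wide median change (log2) to 0.18. It moved the share of higher calls among all calls to 62.5%, against 46.8%. Sarcomere centring moved them to -0.66 and 4.54%. The family counts with the common median were 3 higher and 9 lower, where 41.8% of all tested probe sets were called. Over all probe sets, 1206 were called without the filter, 1708 without heterozygous pool 1 and 1707 without heterozygous pool 2, against 2856. Without the filter the family had 2 higher and 6 lower calls, where 9.71% of all probe sets were called.

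These values changed sign as follows, with causes not tested. Sarcomere centring gave -0.44 for Ccl2, -0.24 for Ccl6, -0.38 for Cxcl1 and -0.046 for Cxcl12 on 162234_f_at. The call of Ackr3, whose alternatives were added after its values were seen, was at -0.059 under sarcomere centring, and its log2 change was 0.50 to 0.70 with each pool left out. With each pool left out in turn, Ccl2 ranged from -0.074 (without wild-type pool 2) to 0.51, Ccl6 from -0.030 (without wild-type pool 2) to 0.87, and Ccl22 from -0.50 to 0.18 (above 0 without wild-type pool 2, at 0.045, and without heterozygous pool 1). Ccl22 was also at 0.019 with a common median and 0.0013 with quantile normalization, and it passed as lower under sarcomere centring (-0.82). With the pool number as a replicate block, the family had 3 higher and 9 lower calls, the added one being Cxcl12 on 162234_f_at, and all 11 calls were kept. In that fit 40.7% of all tested probe sets were called.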
